A study of Arabidopsis thaliana with 44 samples.

Results

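The mitochondrion-encoded genes were described here in dark-grown Arabidopsis thaliana seedlings that grew in orbit or on the ground. They were taken as all rows whose locus identifier starts with ATMG and whose mean over the 40 libraries was at least 1 FPKM (fragments per kilobase of transcript, scaled to the mapped fragments of the library). The rule gave 61 members of the 146 ATMG rows among the 34133 rows of the table. Of the other ATMG rows, 68 were listed at 0 in every library and 17 had a mean above 0 but below 1 FPKM. Just inside the threshold lay ATMG01410 with 1.01 FPKM and ATMG00570 with 1.05 FPKM. Just outside it lay ATMG01090 with 0.821 FPKM and ATMG00970 with 0.770 FPKM.

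The mitochondrial genome of plants encodes ribosomal and transfer RNAs, a small share of the proteins of its own ribosomes, and a few core subunits of the respiratory complexes and the ATP synthase. It also holds factors of cytochrome c maturation and many open reading frames of unknown function, while the remaining subunits of these complexes come from nuclear genes. The library kit used here selects RNA with poly(A) tails. In plant mitochondria such tails mark RNA for decay, so the values do not measure whole mitochondrial transcript pools. In whole seedlings, fewer mitochondria or cells and less RNA in each cannot be told apart.

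All seedlings were of the Col-0 background, grew in darkness for 14 days in canisters for Petri dishes and were fixed in RNAlater in place. The 5 genotypes were WT, the single mutants bzip28-2 and bzip60-2, the double mutant bzip28-2 bzip60-1 and the double mutant ire1a-4 ire1b-2. They are written below without their allele numbers. The mutants lack regulators of the unfolded protein response. IRE1A and IRE1B are sensors in the endoplasmic reticulum, and bZIP28 and bZIP60 are transcription factors. Each genotype was grown in Space flight and on the Ground, which gave 10 groups of 4 libraries of whole seedlings. A plate held many seedlings, so a library pools plants, and the labels name 1 flight run and 1 ground run.

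The deposited FPKM moved with 1 nuclear row. AT2G01021, an uncharacterized locus in the reference, took 22.5 ± 12.8% of a library's total FPKM in the 20 flight libraries and 72.4 ± 14.1% in the 20 ground libraries (SD). Its lowest ground mean was in bzip60, at 50.8 ± 13.5% (SD, n = 4), and the other ground groups lay between 74.1 and 79.9%. The median row of 19186 tested was higher in flight as deposited, by 0.33 (bzip60) to 0.97 (bzip28) on the log2 scale. The part of AT2G01021 in this shift was not tested. Every result was therefore also computed after rescaling each library to the median ratio over 14104 genes above 1 FPKM in all libraries, which left that median between 0.08 and 0.10. Fragment numbers were not used as such, but steps of 1 fragment in low genes placed the relative depth of the libraries between 0.786 and 1.27 of their mean. Of the sequencing lanes in the titles, lane 1 held flight libraries alone (11) and lane 3 ground libraries alone (9), while lanes 2 and 4 held both.

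Many ATMG rows have near-identical copies on nuclear chromosome 2, and these limit what a row can show. In the TAIR10.1 reference, 265721 of the 367808 bases of the mitochondrial genome (72.2%) matched chromosome 2 at 99% identity or more over at least 1000 bases, in 17 stretches between bases 3239040 and 3509760. Notes on nuclear loci in that reference named 53 of the 146 ATMG rows, 15 of them members. For 8 of these 15 the nuclear locus matched a stretch of the mitochondrial genome at 100%. The match was sought over the whole mitochondrial genome, not at the position of the ATMG locus. A pair with a match of 100% is called identical below. Members outside these 15 carry no name in the files or in the reference. They are given by locus identifier, also where a hand-written list served to choose them. The sources used here do not say how fragments with several equal matches were placed. They were aligned to TAIR10, and its mitochondrial sequence was not compared with that of TAIR10.1.

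Coding stretches of 3 such pairs are shown because they bear on which row a fragment could be counted in. In lower case, a base is the same in both copies, and capitals mark the bases that differ. The first 60 coding bases named with ATMG00730, cytochrome c oxidase subunit 3 by the note, were the same at chr2:3312592-3312651 (minus strand, AT2G07687) and at mitochondrial bases 330714 to 330773 (minus strand).
ATMG00730 and AT2G07687: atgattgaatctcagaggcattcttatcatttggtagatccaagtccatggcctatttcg
The first 60 coding bases named with ATMG00220, apocytochrome b, were the same at chr2:3450863-3450922 (plus strand, AT2G07727) and at mitochondrial bases 182799 to 182858 (minus strand).
ATMG00220 and AT2G07727: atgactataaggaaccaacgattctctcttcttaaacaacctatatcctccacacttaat
A stretch named with ATMG00560, an OB-fold nucleic acid-binding protein by the note, differed at 2 of 60 bases between chr2:3411669-3411728 (plus strand) and mitochondrial bases 222062 to 222121 (minus strand).
AT2G07715: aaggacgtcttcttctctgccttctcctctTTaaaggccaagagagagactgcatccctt
ATMG00560: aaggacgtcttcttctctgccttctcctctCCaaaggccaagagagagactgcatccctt

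The rows of a pair split in different ways. ATMG00220 was listed at 0 in all 40 libraries, while its identical nuclear copy AT2G07727 had a mean of 11.2 FPKM. The same held for ATMG00210, ribosomal protein L5, at 0 beside 14.2 FPKM at AT2G07725. ATMG00410, ATPase subunit 6-1, was the reverse, with 2.60 FPKM beside 0 in all 40 libraries at AT2G07741. ATMG00730 and AT2G07687 shared the signal, with means of 8.75 and 7.07 FPKM. ATMG01320, NADH dehydrogenase 2B, had 13.5 FPKM beside 2.13 at AT2G07689, and ATMG01080, the F0-ATPase subunit 9 that builds the rotor ring, had 12.8 beside 1.12 at AT2G07671. Of the 53 ATMG rows with a named copy, 27 were at 0 in every library, and of the 93 without one, 41 were. Of the 55 pairs, 12 were at 0 in both rows. Where only the ATMG row of an identical pair was at 0, the value does not show that the gene was silent.

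**Figure D1:**
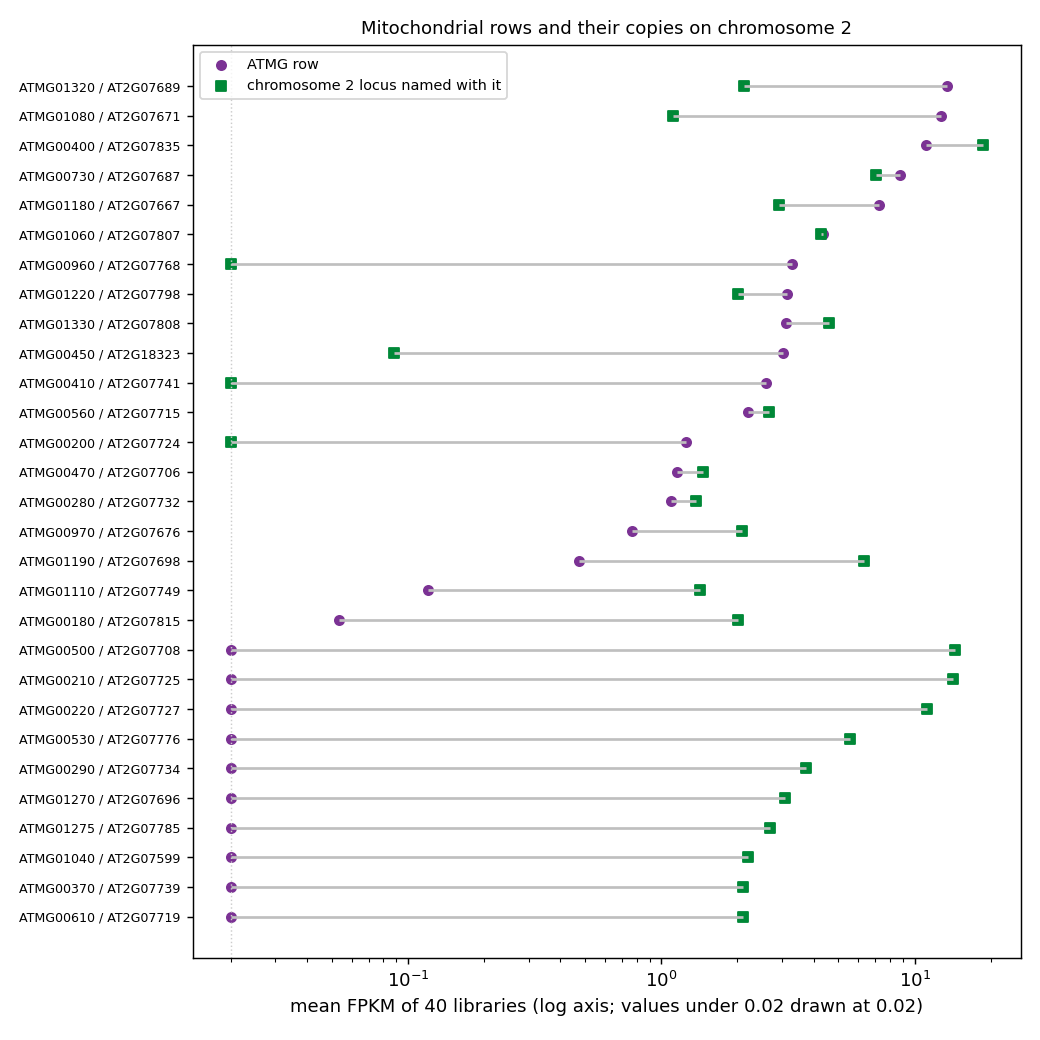
Mean FPKM over 40 libraries (log axis) of the 29 pairs of an ATMG row (circle) and the chromosome 2 locus named with it (square) in which either mean reached 1. Rows such as ATMG00220 sit at the left edge, at 0, while their nuclear copy sits at 11.2 FPKM.

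A few loci held most of the mitochondrial signal. ATMG00020 had a mean of 1427 FPKM, ATMG01390 974, ATMG00030 330 and ATMG01380 216, and the fifth, ATMG00080, had 64.5. Together these top 4 loci made up 87.1 ± 4.2% of the summed member FPKM in the ground libraries and 67.9 ± 5.6% in the flight libraries (SD, n = 20 each), and the ranges of 76.3 to 92.8% and 57.5 to 75.4% did not overlap. The median member, by contrast, lay at 7.23 FPKM. The hand-written lists place ATMG00020, ATMG01390 and ATMG01380 under ribosomal RNA, a role that no annotation in the sources used here gives. The median coefficient of variation among libraries of a group ranged from 18.4% (ATMG00690) to 140% (ATMG01160), and 32.97% was the middle value over the members.

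**Figure D2:**
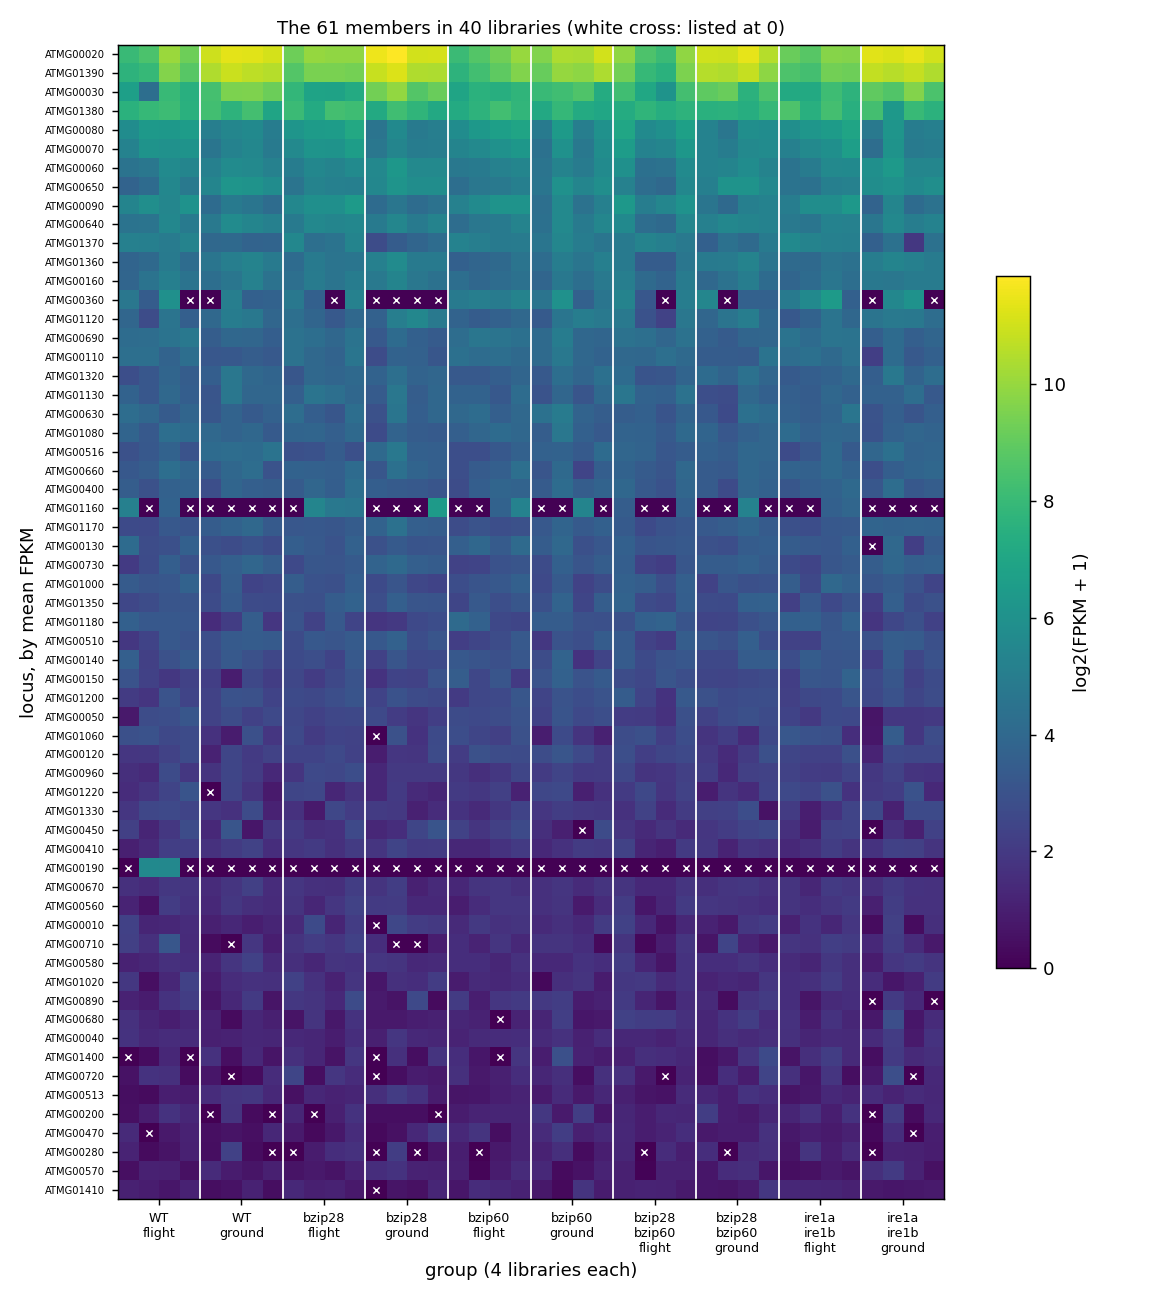
log2(FPKM + 1) of the 61 members (rows, by mean FPKM) in the 40 libraries (columns, by group), with a white cross where a value was listed at 0. The top 3 rows are brighter in the ground columns, and most crosses lie in ATMG00190, ATMG01160 and ATMG00360.

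Flight and ground were compared within each genotype, and the members did not follow the rest of the transcriptome. In WT, 11 members were higher and 10 lower in flight as deposited, 18.03% and 16.4% of the members, where 77.8% and 3.09% of all tested rows were called. After rescaling 1 member was higher and 28 were lower, 1.64% and 45.9%, against 35.5% and 24.9% of all rows. That 1 higher member, ATMG00190, was also among the 11 higher as deposited. It became a member through 2 WT flight libraries, so its call is no test. The median log2 change of the members was 0.07 as deposited and -0.65 rescaled, beside 0.88 and 0.10 over all rows. The members thus changed in both directions on the deposited scale and mostly downwards relative to the median gene.

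The other genotypes were counted in the same way. In bzip28, 10 members were higher and 9 lower as deposited (82.2% and 1.88% of all rows), and 0 and 25 after rescaling (35.1% and 24.2% of all rows). In ire1a ire1b the counts were 9 and 10 as deposited (80.6% and 2.17%), and 1 and 26 rescaled (34.2% and 23.9%). In bzip28 bzip60 they were 5 and 7 (71.2% and 2.64%), and 0 and 19 (32.6% and 22.5%). The share of members called lower was above that of all rows on both scales in these genotypes and in WT.

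In bzip60 fewer members were called. As deposited, 2 were higher and 4 lower, 3.28% and 6.56% of the members, against 40.6% and 7.97% of all rows. After rescaling 0 were higher and 7 lower, 0.0% and 11.5%, against 33.2% and 22.8%. The rescaled median change of the members was -0.21 in bzip60 and between -0.65 and -0.52 in the others. Tested directly, the flight response of bzip60 differed from that of WT for 1 member in each direction as deposited (ATMG00030 and ATMG00190), where 0.0469% of all rows were higher and 22.2% lower. ATMG00190 became a member through 2 WT flight libraries, so its call is no test. After rescaling limma called 0 members, against 0.0208% and 0.0261% of all rows. At an unadjusted p below 0.05, 8 members passed, and no share of all rows is given at that threshold. The bzip60 ground libraries were also those with the lowest share of AT2G01021 on the ground, and the part of that share in the result was not tested.

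**Figure D3:**
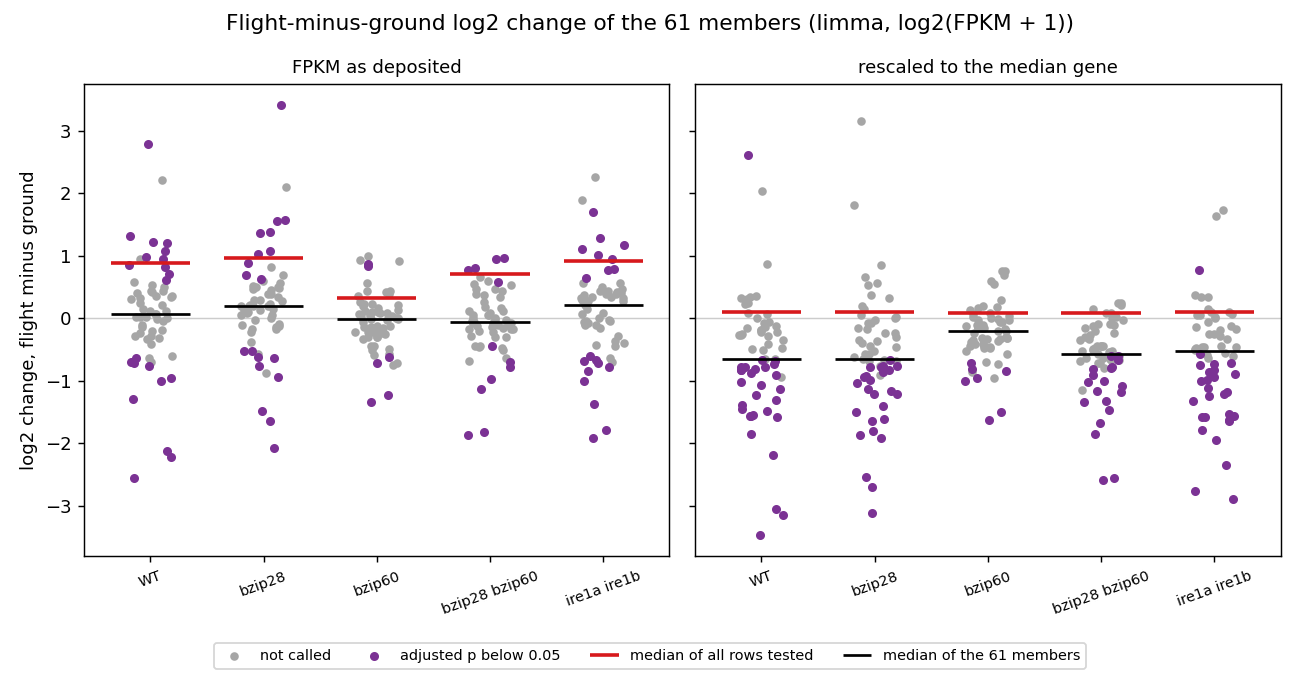
log2 change, flight minus ground, of each of the 61 members by genotype, from FPKM as deposited (left) and rescaled (right), with called members in purple. The black member median lies below the red median of all tested rows in each genotype on both scales, for WT at 0.07 against 0.88 and -0.65 against 0.10.

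In all, 7 members fell in at least 4 genotypes on both scales, and 4 of them, ATMG00020, ATMG01390, ATMG01360 and ATMG01170, in all 5. How many of all tested rows met the same rule was not counted. ATMG00020, the highest row, stood at 262, 361, 1065 and 599 FPKM in the WT flight libraries and at 1977, 2628, 2543 and 2171 in the WT ground libraries. All WT flight libraries lay below all WT ground libraries. The log2 change was -2.22 ± 0.38 (SE, adjusted p = 3.82e-06) as deposited and -3.14 ± 0.49 (adjusted p = 1.31e-06) rescaled. Over the 5 genotypes it ran from -2.22 to -1.35 and from -3.14 to -1.62. The smallest was in bzip60, where flight libraries at 268 to 1026 FPKM overlapped ground libraries at 779 to 2090. The call held without any 1 replicate number and with a lane term in every genotype, with adjusted p up to 0.0463 on either scale.

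ATMG01390 fell in the same genotypes. In WT it stood at 199, 244, 800 and 432 FPKM in flight and at 1372, 1902, 1613 and 1464 on the ground, again without overlap. Its log2 change was -2.13 ± 0.40 (adjusted p = 1.27e-05) as deposited and between -2.13 and -1.23 over the genotypes. In bzip60 the call was lost without replicate 2, at adjusted p = 0.0902 as deposited and 0.0780 rescaled, and with a lane term as deposited, at adjusted p = 0.0708. The ratio of ATMG00020 to ATMG01390 stayed narrow, at 1.39 ± 0.08 in flight and 1.49 ± 0.08 on the ground (SD, n = 20 each).

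ATMG01380, the fourth highest row, gave other values. In WT it stood at 189, 243, 280 and 185 FPKM in flight and at 310, 202, 312 and 120 on the ground, which overlapped. Its change was 0.00 ± 0.33 as deposited (adjusted p = 0.995) and -0.92 ± 0.38 rescaled (adjusted p = 0.0365). No genotype passed as deposited, and WT alone passed after rescaling, a call lost without replicate 1 (adjusted p = 0.175) or replicate 3 (adjusted p = 0.0853).

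ATMG00030 fell in every genotype but bzip60. Its WT flight libraries had 103, 18.4, 253 and 178 FPKM and its WT ground libraries 327, 731, 767 and 590. The 18.4 FPKM was the lowest of all 40 values. The log2 change in WT was -2.55 ± 0.51 (adjusted p = 3.23e-05) as deposited and -3.47 ± 0.58 (adjusted p = 3.99e-06) rescaled. In bzip60 flight libraries at 120 to 218 FPKM overlapped ground libraries at 154 to 380, with a change of -0.58 ± 0.51 (adjusted p = 0.354). In bzip28 bzip60 the deposited call, at adjusted p = 0.0455, was lost without replicate 1, 2 or 3 (adjusted p 0.0752, 0.156 and 0.0945) and with a lane term. In ire1a ire1b it was lost without replicate 1 (adjusted p = 0.0779).

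**Figure D4:**
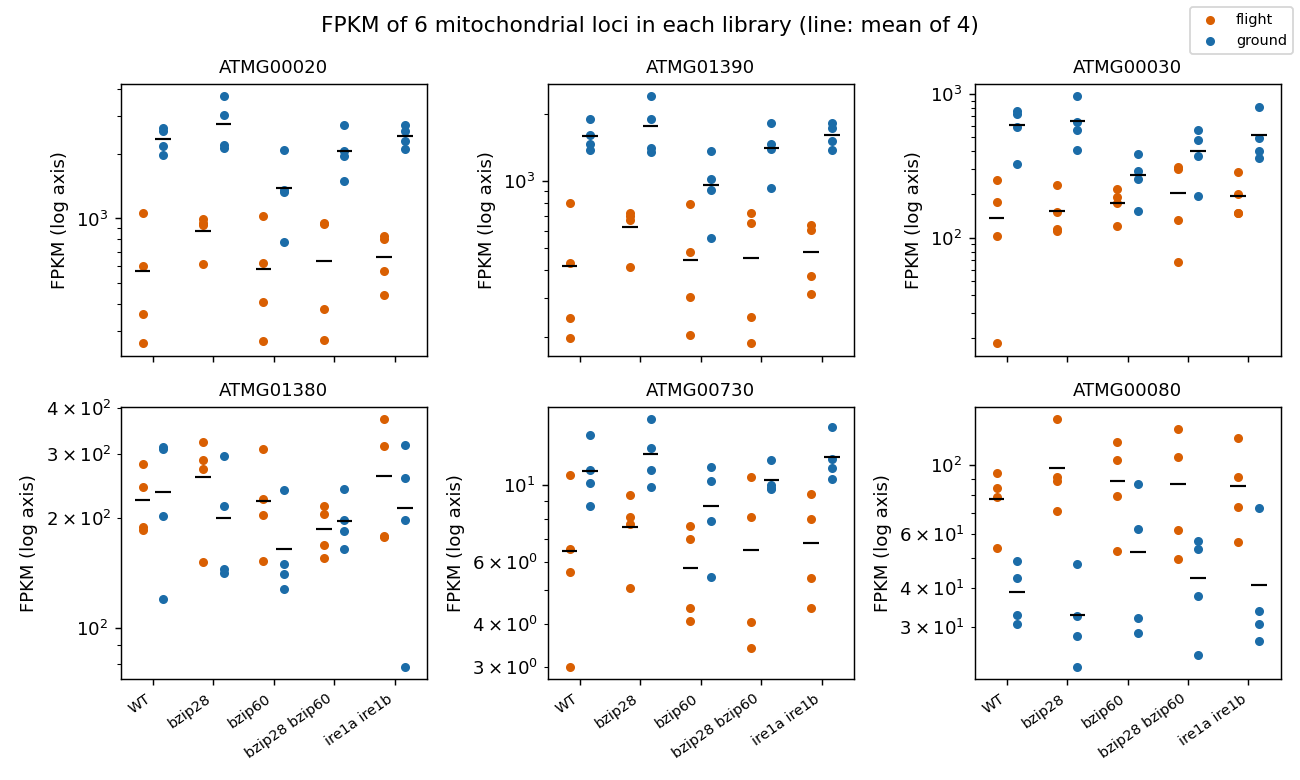
FPKM (log axis) in each library of the 4 highest loci, of ATMG00730 and of ATMG00080, flight in orange and ground in blue, with a line at the mean of 4. ATMG00020 and ATMG01390 were lower in flight, ATMG01380 overlapped, and ATMG00080 was higher in flight as deposited.

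The other members that fell had lower levels and smaller changes. ATMG01360 stood at 13.3, 15.8, 28.7 and 17.3 FPKM in WT flight and at 23.4, 32.5, 39.02 and 27.2 in WT ground, with 1 flight library inside the ground range. Its change over the genotypes ran from -0.84 to -0.63 as deposited and from -1.78 to -0.96 rescaled. ATMG01170 stood at 5.34, 5.09, 8.54 and 7.53 against 9.87, 12.05, 14.9 and 9.30 FPKM, without overlap, and its change ran from -0.72 to -0.44 and from -1.58 to -0.85. ATMG00650 stood at 12.7, 16.9, 44.5 and 26.6 against 41.3, 70.7, 67.1 and 53.7 FPKM, where the third flight library overlapped. Its change in WT was -1.30 ± 0.32 as deposited (adjusted p = 4.62e-04), and in bzip60 it passed only after rescaling (adjusted p = 0.0314). That call was lost without replicate 2, 3 or 4 (adjusted p 0.148, 0.0679 and 0.0828) and with a lane term (0.0954). The call of ATMG01360 in bzip60 was lost without replicate 2 or 3 on both scales (adjusted p 0.168 and 0.0505 as deposited, 0.119 and 0.0535 rescaled), and as deposited without replicate 4 (0.0577).

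ATMG00730, cytochrome c oxidase subunit 3 by the note, belongs to the enzyme that hands electrons to oxygen. It stood at 3.02, 5.63, 10.7 and 6.56 FPKM in WT flight and at 8.69, 11.1, 13.9 and 10.13 in WT ground, with the third flight library inside the ground range. The change was -0.76 ± 0.27 (adjusted p = 0.0114) as deposited and -1.57 ± 0.34 (adjusted p = 1.69e-04) rescaled. The deposited call was lost without replicate 2 (adjusted p = 0.0517) and with a lane term (adjusted p = 0.0823), while the rescaled call held in each of these fits. Its identical nuclear copy AT2G07687 stood at 3.31, 4.31, 8.98 and 6.27 against 7.30, 8.38, 14.3 and 7.23 FPKM in the same libraries. The copy changed by -0.64 ± 0.27 (adjusted p = 0.0270) and -1.43 ± 0.32 (adjusted p = 2.09e-04). How the signal of this pair divides between the organelle and the nucleus was not tested.

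Of 25 tested chromosome 2 loci named with an ATMG row, few fell as deposited, and more did after rescaling, as was so over all rows. In WT 5 were higher and 1 lower as deposited, and 0 and 11 rescaled, with medians of 0.09 and -0.61. All rows in WT were 77.8% higher and 3.09% lower as deposited, and 35.5% and 24.9% rescaled. In bzip28 13 were higher and 0 lower as deposited (82.2% and 1.88% of all rows), and 0 and 4 rescaled (35.1% and 24.2%). In bzip60 the counts were 0 and 0 (40.6% and 7.97%), and 0 and 1 rescaled (33.2% and 22.8%). In bzip28 bzip60 they were 3 and 1 (71.2% and 2.64%), and 0 and 6 rescaled (32.6% and 22.5%). In ire1a ire1b they were 3 and 1 (80.6% and 2.17%), and 0 and 10 rescaled (34.2% and 23.9%). The 61 members in WT had medians of 0.07 and -0.65.

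Of the 7 members that fell, 32 calls over the genotypes were made as deposited and 33 after rescaling. Without each replicate number in turn, 16 of the 32 and 30 of the 33 passed every time. With a lane term 26 and 32 passed. The deposited calls of ATMG01360 in WT (adjusted p = 0.0879) and of ATMG01170 in bzip28 (adjusted p = 0.117) were among those lost without replicate 2.

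Members with a higher value in flight rose only as deposited, apart from ATMG00190 in WT and ATMG01370 in ire1a ire1b. ATMG00080 and ATMG00090 rose as deposited in all 5 genotypes, and ATMG00690 and ATMG01370 in 4. The share of all rows that rose in as many genotypes was not counted, but 40.6% (bzip60) to 82.2% (bzip28) rose within a genotype. Of the 18 calls of these members, 8 held without each replicate number in turn. Those lost without 3 of the 4 numbers were ATMG00080 in bzip60 (without 1, 3 or 4, adjusted p 0.0637, 0.347 and 0.123) and ATMG01370 in bzip28 bzip60 (without 1, 2 or 3, adjusted p 0.174, 0.124 and 0.0783). ATMG00090 in bzip60 was lost without replicate 3 or 4 (adjusted p 0.258 and 0.0740) and ATMG00690 in ire1a ire1b without replicate 1 or 3 (0.0577 and 0.0529).

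ATMG00080 stood at 54.0, 84.0, 78.8 and 94.3 FPKM in WT flight and at 32.8, 43.1, 49.1 and 30.8 in WT ground, without overlap. Its change of 0.98 ± 0.35 (adjusted p = 0.0107) lay beside 0.88 for the median row, and its call was lost without replicate 4 (adjusted p = 0.0888). After rescaling it was 0.07 ± 0.38 (adjusted p = 0.884). ATMG00090 stood at 40.0, 57.1, 43.1 and 65.3 against 16.6, 28.7, 23.5 and 17.2 FPKM, a change of 1.23 ± 0.33 (adjusted p = 9.69e-04) that became 0.33 ± 0.35 (adjusted p = 0.420) rescaled.

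ATMG01370 in ire1a ire1b stood at 48.6, 38.7, 34.9 and 33.3 FPKM in flight and at 11.5, 20.6, 2.85 and 20.4 on the ground, without overlap. The change was 1.69 ± 0.34 (adjusted p = 4.09e-05) as deposited and 0.78 ± 0.31 (adjusted p = 0.0314) rescaled. The rescaled call was lost without replicate 1 (adjusted p = 0.0580) or replicate 3 (adjusted p = 0.458), the latter being the ground library at 2.85 FPKM. ATMG00070, the sixth highest row, stood at 37.3, 66.8, 63.2 and 67.4 FPKM in WT flight against 23.2, 36.9, 43.5 and 27.9. Its change was 0.82 ± 0.36 (adjusted p = 0.0354) as deposited and -0.08 ± 0.39 (adjusted p = 0.865) rescaled. The deposited call was lost without replicate 2, 3 or 4 (adjusted p 0.0626, 0.0706 and 0.138).

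ATMG00640 and ATMG00110 show the dependence on scale once more. ATMG00640 stood at 21.6, 22.9, 44.1 and 27.4 FPKM in WT flight and at 26.5, 51.4, 40.97 and 34.4 in WT ground. It did not pass as deposited (-0.41 ± 0.30, adjusted p = 0.202) and fell after rescaling (-1.30 ± 0.36, adjusted p = 0.00215), a call lost without replicate 2 (adjusted p = 0.0564). ATMG00110 stood at 19.003, 18.95, 12.6 and 18.3 against 8.39, 8.55, 10.2 and 8.83 FPKM. It passed as deposited (0.85 ± 0.28, adjusted p = 0.00559) and was at 0.00 ± 0.21 (adjusted p = 0.991) rescaled. ATMG00570, the lowest of the named members, changed by -0.23 ± 0.29 in WT (adjusted p = 0.468) and passed as deposited in ire1a ire1b alone, at -0.71 ± 0.29 (adjusted p = 0.0237), a call lost without replicate 1 or 2 (adjusted p 0.153 and 0.141). Within a genotype, 0 members turned from a higher call as deposited to a lower call on the rescaled values, while 3 (ATMG00050, ATMG00960 and ATMG01130) were higher in 1 genotype and lower rescaled in another. In all, 13 members were called in no genotype on either scale, and the share of all rows without a call was not counted.

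The sum over members was lower in flight, and its flight and ground ranges overlapped in bzip60 alone of the 5 genotypes. The sum over all 61 members was 2027 ± 872 FPKM in WT flight and 5329 ± 835 in WT ground (SD, n = 4), and 2242 ± 701 and 4948 ± 1265 over all flight and ground libraries (n = 20 each), where the ranges of 1149 to 3237 and 2179 to 8128 overlapped. The hand-written list of ribosomal RNA held 3 high loci (ATMG00020, ATMG01390 and ATMG01380). For 22 members of lower level, taken from the other hand-written lists, the sums were 439 ± 116 in flight and 416 ± 92 on the ground. Those ranges, 273 to 642 and 249 to 593 FPKM, overlapped widely. After rescaling the same 22 members summed to 338 ± 109 in flight and 565 ± 191 on the ground. The rescaled flight and ground ranges overlapped in 4 of the 5 genotypes, and in ire1a ire1b they did not, at 222 to 458 and 495 to 768 FPKM.

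The sums were set beside the share of AT2G01021 and the lane. Lanes 2 and 4 held different sets of genotypes. Of these lanes, ground libraries of bzip60 and bzip28 bzip60 lay in lane 2 alone, and those of bzip28 and ire1a ire1b in lane 4 alone. WT ground libraries, and flight libraries of bzip28 and ire1a ire1b, lay in both. Lane and genotype were thus only partly separate there, and their parts in the sums were not told apart. In 6 of the 10 groups the library with the highest sum over all members also had the highest share of AT2G01021. For the sum of the 22 members this held in 4 of 10 groups as deposited and in 6 rescaled. At the lowest library the counts were 5 for all members, and for the 22 members 5 as deposited and 8 rescaled. These matches were not tested. Within lane 2, where the mean share was 33.4% in 4 flight and 67.4% in 6 ground libraries, the sum of the 22 members was 550 FPKM in flight and 388 on the ground as deposited, and 443 and 480 rescaled. Within lane 4, with shares of 15.3% and 81.1% in 5 libraries each, it was 381 and 425 as deposited, and 280 and 749 rescaled. The sum over all members was lower in flight in both lanes, by 0.59 in lane 2 and 1.59 in lane 4 on the log2 scale, since its log2 ratios of flight to ground were -0.59 and -1.59. The part of AT2G01021 in these sums was not tested.

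**Figure D5:**
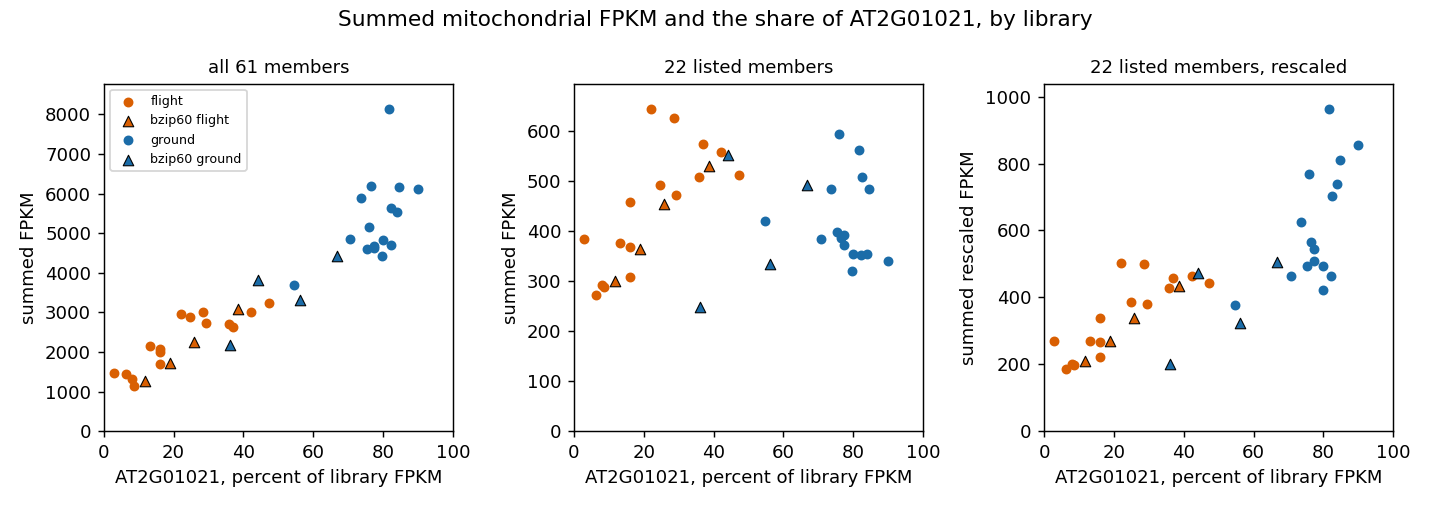
Summed FPKM of all 61 members (left), of the 22 listed members (middle) and of the same 22 after rescaling (right) against the percent of the library's FPKM in AT2G01021, 1 point per library, triangles for bzip60. The bzip60 ground libraries lie at a mean of 50.8% on the horizontal axis, to the left of most other ground libraries.

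Mutants were compared with WT on the ground, and members were called in bzip60 alone. There, 6 members were higher and 2 lower as deposited, 9.84% and 3.28%, where 69.8% and 0.25% of all rows were called. After rescaling 0 were higher and 2 lower, against 2.26% and 2.36% of all rows, so those shares were near the background. ATMG00513 alone passed on both scales. It stood at 0.838, 1.74, 0.744 and 1.47 FPKM in bzip60 and at 1.82, 2.56, 2.75 and 1.55 in WT, with 1 bzip60 library inside the WT range. The change was -0.54 ± 0.23 (adjusted p = 0.0407) as deposited and -0.96 ± 0.28 (adjusted p = 0.0381) rescaled, at a level near 1 FPKM where the pseudocount of 1 reduces a fold change. Both calls were lost without replicate 1, 2 or 3, with adjusted p of 0.0830 to 0.256 as deposited and 0.109 to 0.279 rescaled, and with a lane term (0.0725 and 0.0656). The deposited call was also lost with a pseudocount of 0.1 and without the filter on low values.

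The 6 higher as deposited in bzip60 were ATMG00110, ATMG00150, ATMG00200, ATMG00690, ATMG01180 and ATMG01370, all named because they are so few. The largest change, 1.32 ± 0.32 (adjusted p = 0.00146), was that of ATMG00150, at 7.18, 11.9, 7.18 and 9.39 FPKM in bzip60 against 3.53, 0.951, 4.87 and 3.40 in WT. The deposited call was lost without replicate 2 (adjusted p = 0.0709), and the change was 0.84 ± 0.29 (adjusted p = 0.0904) rescaled. ATMG00030 was the second member lower as deposited, at 258, 293, 380 and 154 FPKM against 327, 731, 767 and 590, a change of -1.15 ± 0.51 (adjusted p = 0.0434). That call was lost without replicate 1, 2 or 4 (adjusted p 0.0571, 0.0861 and 0.200), with a lane term (0.0879), with the replicate block (0.0505) and without the filter (0.0764). ATMG00516 was the second lower one after rescaling (-1.13 ± 0.31, adjusted p = 0.0302), and was lost without any 1 replicate number (adjusted p from 0.0532 to 0.171).

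In bzip28, bzip28 bzip60 and ire1a ire1b against WT on the ground, limma called 0 members on either scale. At an unadjusted p below 0.05, 1 to 4 passed, and the shares of all rows below are for calls at the adjusted threshold. For bzip28, 0.0208% of all rows were higher and 0.683% lower as deposited, and 1.14% and 2.2% rescaled. For bzip28 bzip60 the shares were 0.782% and 0.109%, and 1.24% and 1.11% rescaled. For ire1a ire1b they were 0.0573% and 0.0782%, and 0.188% and 0.297% rescaled.

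In flight, limma called 0 members in any of the 4 mutants against WT on either scale. At an unadjusted p below 0.05, 1 to 4 passed, and no share of all rows is given at that threshold. The background of adjusted calls was as low. In bzip28, 0.0104% of all rows were higher and 0.151% lower as deposited, and 0.0104% and 0.172% rescaled. In bzip60 the shares were 0.0208% and 0.136%, and 0.0365% and 0.214% rescaled. In bzip28 bzip60 they were 0.0156% and 0.162%, and 0.0261% and 0.292% rescaled, and in ire1a ire1b 0.0678% and 0.104%, and 0.0834% and 0.151% rescaled. These comparisons share the WT libraries.

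The flight responses of bzip28, bzip28 bzip60 and ire1a ire1b were also set against that of WT, and limma called 0 members. At an unadjusted p below 0.05, 1 to 4 passed, and no share of all rows is given at that threshold. Of all rows, 0.00521% were called higher and 0.0156% lower for bzip28 as deposited, and 0.0313% and 0.0156% rescaled. For bzip28 bzip60 the shares were 0.0% and 0.0156%, and 0.0365% and 0.0469% rescaled. For ire1a ire1b they were 0.0% and 0.00521% on both scales.

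Nuclear genes of the same complexes were counted beside the members. These are the partners that the cell makes in the cytosol and imports to assemble with mitochondrion-encoded subunits. In WT, 77.8% of all rows were higher and 3.09% lower as deposited, and 35.5% and 24.9% rescaled. Of 48 nuclear subunits of complexes I to V and cytochrome c listed by hand, 46 were tested. In WT flight 45 rose and 0 fell as deposited, and 23 rose and 5 fell after rescaling. Their median change was 1.082 as deposited and 0.21 rescaled, beside the members' 0.07 and -0.65. In bzip60 23 rose and 0 fell as deposited (40.6% and 7.97% of all rows), and 18 rose and 4 fell rescaled (33.2% and 22.8%). No test of the difference between the lists was made.

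Among the ATP synthase subunits, 9 of 9 tested rose in WT as deposited and 7 rescaled, with 0 lower. Of all rows in WT, 77.8% rose and 3.09% fell as deposited, and 35.5% and 24.9% rescaled. Of the 9 complex IV subunits, 9 rose as deposited, and 2 rose and 1 fell rescaled, with a rescaled median of 0.12. Of 12 complex I subunits 5 rose and 2 fell rescaled, of 4 complex II subunits 2 and 0, and of 12 in the list of complex III and cytochrome c 7 and 2. ATP5, the delta subunit of the mitochondrial ATP synthase, had 57.9 ± 18.9 FPKM in ground and 174 ± 21 in flight libraries over all genotypes (SD, n = 20 each), a WT change of 1.89 as deposited and 0.97 rescaled (adjusted p = 5.69e-10 and 8.69e-12). COX6B, from the complex IV list a subunit of cytochrome c oxidase, changed by 1.67 and 0.77, and CYTC-1, the mobile electron carrier cytochrome c, by 1.59 and 0.68. AT1G80230, also from the complex IV list, changed by 0.62 as deposited and fell by 0.28 rescaled, and it fell rescaled in all 5 genotypes. AT5G25450, from the complex III list, stood at 11.3 ± 3.2 FPKM in ground and 11.4 ± 2.3 in flight libraries. It fell after rescaling in all 5 genotypes (-0.92 in WT).

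Nuclear factors of mitochondrial RNA, which transcribe, edit, splice or degrade it, were counted in the same way. Of 13 tested, 13 rose in WT as deposited, where 77.8% of all rows rose. After rescaling 3 rose and 1 fell, against 35.5% and 24.9% of all rows. Their rescaled median was 0.08 beside 0.10 over all rows. MORF1, an RNA editing factor, rose in all 5 genotypes after rescaling (0.39 in WT, adjusted p = 0.00469). ATSUV3, an RNA helicase, changed by 0.77 as deposited (adjusted p = 6.29e-04) and by 0.04 rescaled (adjusted p = 0.794).

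Of the 2440 member values, 111 were listed at 0 (4.55%), against 1.34% of the values of all tested rows. Zeros made up 5.82% of the ground and 3.28% of the flight values, beside 1.78% and 0.905% for all tested rows. Mean relative depth was 0.942 ± 0.094 in ground and 1.07 ± 0.11 in flight libraries (SD), and its part in the zeros was not tested. By group the mean number of zeros per library ran from 1.50 in ire1a ire1b flight to 5.25 in bzip28 ground, and single libraries held 0 to 9. These zeros fell on 17 members, and 75 of them on 3: ATMG00190 (38), ATMG01160 (26) and ATMG00360 (11). Without these 3 members 1.55% of values were 0.

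The values of these 3 rows are given here. ATMG00360 stood at 24.9, 9.98, 60.7 and 0 FPKM in WT flight, and at 0 in all 4 bzip28 ground libraries. Its lowest values gave an estimated step of 11.4 FPKM per fragment at mean depth. Of its 29 values above 0, 14 lay within 0.1 fragment of a whole step, and 21 rounded to 3 fragments or fewer. For ATMG01160 the estimated step was 12.8 FPKM. Of its 14 values above 0, 7 lay within 0.1 fragment of a whole step, and 13 rounded to 3 fragments or fewer. ATMG00190 was a member through 2 of the 4 WT flight libraries, at 47.9 and 45.4 FPKM, and was listed at 0 in the other 38 libraries. Its call in WT flight is fixed by these 2 libraries, through which it became a member, and is no test. The row ATMG01380, at 78.5 to 373 FPKM, and the rows at and above the level of ATMG00080 held no zero.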

How the data were processed

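RNA was sequenced from whole seedlings with a stranded mRNA kit, per the labels' protocols. The authors deposited 1 table of FPKM for 40 of 44 labelled samples. FastQC 0.11.5, cutadapt 1.8.1, Bowtie2 2.2.4, TopHat2 2.0.14, Cufflinks 1.3.0 and TAIR10 are named in the submitters' processing notes. Columns were matched to groups by sample title, and 0 columns were left unmatched.

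Values were taken to log2(FPKM + 1), which understates fold changes of low genes. The 19186 rows with a mean of at least 1 FPKM were fitted with limma 3.58.1 (R 4.3.3, eBayes with trend, 10 group means, 30 residual degrees of freedom) in 17 comparisons. An adjusted p (Benjamini-Hochberg, all rows) below 0.05 was called. Deposited FPKM is the main scale. "Rose" and "fell" name calls on the scale stated. The p-values cover the spread between these libraries alone. The fits were tested on simulated data.

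Absolute depth is unknown. Relative depth came from values taken as 1 to 3 fragments in 2416 low nuclear genes. The step of a gene was set from its own lowest values, so values of 1 fragment lie near a step by construction. Within 0.1 fragment of a whole step lay 90.8% of the values of 1 fragment, 66.7% of those of 2 and 52.2% of those of 3.

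Members and lists were chosen with earlier results of these data known. The hand-written lists rest on no annotation in the sources used here. They served to choose members, to form the sum of 22 members and to set a scaling by that sum. The nuclear subunits and RNA factors counted were also listed by hand. Members were named if highest in a hand-written list, or called on both scales in 4 or more genotypes, or on both scales in another comparison. ATMG00090, ATMG00690, ATMG01370, ATMG00190, ATMG01160 and ATMG00360, members with a nuclear copy, and the nuclear genes described were picked after their values were seen. Names of ATMG rows came from notes on nuclear loci. Copies were aligned with blastn 2.17.0, and stretches were read from RefSeq TAIR10.1. Replicate numbers were not taken to pair samples. Alternatives were rescaling, a pseudocount of 0.1, no filter, a replicate block, a lane term, leaving out each replicate number, and 2 other scalings.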

Additional observations from a re-analysis of the deposited data

Results flagged for a closer look

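In 9 of 170 groups of 4 libraries examined (17 quantities in 10 groups), 1 library stood apart from the other 3 by the gap criterion. Chance flags about 1 in 20 such groups. In bzip28 flight, replicate 1 was low at ATMG00020, with 613 FPKM against 932 to 994, and at ATMG01390, with 414 against 669 to 717. In WT flight, replicate 1 was low at ATMG00070 (37.3 FPKM against 63.2 to 67.4) and replicate 3 at ATMG00110 (12.6 against 18.3 to 19.003). In bzip28 bzip60 ground, replicate 4 was high at ATMG00110 (22.1 FPKM against 9.70 to 9.81) and replicate 3 at ATMG00730 (11.8 against 9.73 to 9.99). In bzip28 bzip60 flight, replicate 2 was low at ATMG00570 (0.0912 FPKM against 1.081 to 1.14). In ire1a ire1b ground, replicate 2 was high at ATMG00080 (72.4 FPKM against 27.1 to 33.9), and replicate 1 had the highest share of AT2G01021 (83.9% against 75.3 to 76.4%).

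The flight response differed between bzip60 and WT for 2 members as deposited. The change of ATMG00030 was 1.97 higher on the log2 scale in bzip60 than in WT (SE 0.72, adjusted p = 0.0477). The call was lost without each replicate number in turn (adjusted p from 0.0612 to 0.342), with a lane term, with a replicate block and without the filter on low values. After rescaling the difference was 2.61 (adjusted p = 0.261). For ATMG00190 the difference was -2.79. That row became a member through the 2 WT flight libraries in which alone it was above 0, so this difference is fixed by the choice of members and is no test.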

How the results depend on the processing

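The scale of the values changed the most counts. Median-ratio rescaling gave higher and lower members of 1 and 28 in WT, 0 and 25 in bzip28, 0 and 7 in bzip60, 0 and 19 in bzip28 bzip60 and 1 and 26 in ire1a ire1b. Equal total FPKM without AT2G01021, an alternative chosen after seeing the data, gave 1 and 28, 0 and 23, 0 and 7, 0 and 19, and 1 and 25. On both scales 0 members were higher in bzip60 than in WT on the ground, and 0 differed in flight response between them in either direction. These scales also turned the sign of named changes. Rescaled and equal-total values were -0.083 and -0.082 for ATMG00070 in WT, -0.00363 and -0.00276 for ATMG00110 in WT, -0.92 and -0.91 for ATMG01380 in WT, -0.081 and -0.044 for ATMG00110 in bzip28, and -0.18 and -0.14 for ATMG00070 in ire1a ire1b. ATMG00640 in bzip28 was -0.83 rescaled. The rescaled sums of the 22 members were 313 FPKM in WT flight and, on the ground, 588 in WT, 706 in bzip28, 514 in bzip28 bzip60 and 642 in ire1a ire1b. Their log2 ratio of flight over ground was -0.74 rescaled, and 0.50 as deposited within lane 2.

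With a lane term, 4 members were higher in bzip60 flight, 4 lower in bzip28 bzip60 flight, 0 lower in bzip60 than in WT on the ground, and 0 in either direction in the bzip60 response. With a lane term after rescaling, 1 was higher and 4 lower in bzip60, 12 lower in bzip28 bzip60, and 1 lower in bzip60 than in WT on the ground. Without the filter on low values, 1 was higher in bzip60 flight, 0 lower in bzip60 against WT on the ground, and 0 in either direction in the bzip60 response. A pseudocount of 0.1 gave 1 lower in bzip60 against WT on the ground and 0 lower in the bzip60 response. With the replicate number as a block, 0 members were higher in the bzip60 response, and the other counts stayed within 1.5 times. Deviations of same-numbered libraries correlated between -0.11 and 0.17, and 6 of 20 flight libraries correlated best with their own number. The share of zeros was 2.71% for members of at least 5 FPKM and 1.55% without the 3 members with most zeros. The cause of these changes was not tested.

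Leaving out each replicate number in turn gave ranges of counts, higher first. In WT these were 7 to 11 higher as deposited and, rescaled, 1 to 2 higher and 12 to 26 lower. In bzip28 they were 5 to 14 higher and 4 to 9 lower, and 0 to 2 and 15 to 25 rescaled. In bzip60 they were 0 to 5 and 2 to 6, with 2 to 9 lower rescaled. In bzip28 bzip60 they were 0 to 5 and 2 to 10, with 8 to 25 lower rescaled. In ire1a ire1b they were 4 to 11 and 5 to 11, and 0 to 1 and 17 to 25 rescaled. On the ground, bzip60 against WT gave 1 to 8 higher and 0 to 3 lower, with 0 to 2 lower rescaled, and bzip28 bzip60 against WT 0 to 1 higher rescaled. Each mutant against WT in flight gave 0 to 1 lower on both scales. The bzip60 response gave 0 to 0 higher and 0 to 1 lower. Over all alternative settings, 675 values for single members kept their side of the threshold, 106 fell short of it and 22 passed it. Another 11 changed sign where at least 1 of the compared fits gave a call. Sign changes where neither fit gave a call count among the 675. Depth limits the rows estimated at a few fragments, ATMG00360 and ATMG01160.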
